A study of Mus musculus with 4 samples.

Results

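Heat shock chaperone genes were followed across 4 states of mouse bone-marrow-derived macrophages. The group was a list of 10 genes: the HSP70 family genes Hspa1a, Hspa1b, Hspa8 and Hsph1, the HSP40 genes Dnaja1 and Dnajb1, Hsp90aa1 and its cofactor gene Chordc1, the mitochondrial chaperonin gene Hspd1, and the transcription factor gene Hsf1. A gene was measured by the array probe annotated to its symbol alone, and by the probe with the highest mean of the 4 arrays where it had several. By this rule 8 of the 10 genes were measured, of 19938 genes in all. Hspa1b and Hsf1 had no probe of their own symbol alone and are not analysed here. All 8 measured genes were among the 12203 that passed a filter on low signal (a log2 signal of at least 6.47, the median of all values, on at least 1 array).

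The macrophages came from marrow of female BalbC mice, differentiated over 7 days with L929-conditioned medium, which supplies the growth factor M-CSF. The groups were LPS/zVAD/Nec-1, LPS/zVAD, LPS and Control. LPS, the bacterial ligand of the receptor TLR4, was given at 10 ng/ml, zVAD, a caspase inhibitor, at 50 µM, and Nec-1, an inhibitor of the kinase RIPK1, at 30 µM. Each group had 1 array of total RNA, so none of the differences has a replicate behind it and no p-value was computed. The labels state neither the treatment times nor the number of mice or any pooling, and no array of zVAD or Nec-1 without LPS was analysed here. The design text names the question: which changes depend on the kinase activity of RIPK1 when LPS and zVAD are combined.

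Heat shock proteins are chaperones that bind unfolded proteins and help them fold, assemble or be degraded. HSP70 proteins work in cycles of ATP binding, in which J-domain proteins of the HSP40 family deliver the client and start ATP hydrolysis, and nucleotide exchange factors such as HSP110 reset the chaperone. HSP90 acts later, on partly folded clients that include many kinases and receptors. Under heat or proteotoxic stress the transcription factor HSF1 forms trimers, binds heat shock elements in DNA and switches on the inducible members of these families.

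A heat shock element is a run of GAA units and their complement TTC, alternating with 2 bases between units. Only exact, adjoining units were counted here, so a unit with a mismatch, or one beyond a gap, is not part of a run. To show how the listed genes differ in this sequence, the longest such run among each gene's RefSeq promoter windows is printed below. A window (GRCm38.p6) runs from 250 bases before to 50 after an annotated start. Sequences read 5′ to 3′ on the gene's strand, with the units in capitals. Windows were given for 7 of the 10 genes, and 6 of these held at least 2 units.
Chordc1, chr9:18292260-18292288, plus strand: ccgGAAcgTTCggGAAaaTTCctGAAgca
Hspd1, chr1:55088054-55088081, minus strand: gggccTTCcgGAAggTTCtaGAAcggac
Hsph1, chr5:149636280-149636308, minus strand: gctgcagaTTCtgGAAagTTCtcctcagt
Dnaja1, chr4:40722324-40722371, plus strand: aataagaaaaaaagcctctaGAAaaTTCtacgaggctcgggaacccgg
Hspa1a, chr17:34972233-34972280, minus strand: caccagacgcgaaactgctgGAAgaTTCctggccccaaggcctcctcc
Hspa1b, chr17:34959315-34959362, minus strand: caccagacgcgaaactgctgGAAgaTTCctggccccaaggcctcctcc

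The run in Chordc1 had 5 units and began 4 bases before the annotated start. It was the 1 window of 32851 in the table with a run of 5. Hspd1 had 4 units, beginning 144 bases before one of its starts but past another, and 8 windows in the table held 4 or more. Hsph1 had 3 units, from base 16 after a start, and 198 windows (0.603%) held 3 or more. Dnaja1, Hspa1a and Hspa1b had 2 units in the form GAANNTTC, beginning 124 bases (Dnaja1) and 104 bases (Hspa1a and Hspa1b) before the start. Runs of at least 2 units in either order, GAANNTTC or TTCNNGAA, each of which reads the same on both strands, were in 15.1% of all windows and in 7 of the 12 windows of the listed genes. Some of those 12 windows overlap each other, and those of Hspa1a and Hspa1b differed at 4 of 300 bases. Neither window of Dnajb1 held 2 adjoining units. A match is a description of the reference sequence of another mouse strain and not a measured binding site, and a window without one says only that these letters are not in it.

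LPS against Control asks what the TLR4 ligand alone does to the chaperone genes. Of the 8 measured genes, 2 were at least 2-fold higher with LPS, against 8.24% of all filtered genes, and 0 were 2-fold lower, against 7.20%. At 1.5-fold 4 were higher (Hspa1a, Dnaja1, Dnajb1 and Chordc1; background 14.4%) and Hspd1 was lower (17.3%). Hspa1a had by far the widest range, at 30.6-fold, and the next ratio was 2.16-fold for Dnaja1. In all, 7 of the 8 had log2 ratios above 0, against 39.9% of filtered genes. The median log2 ratio of the 8 genes was 0.56, against -0.12 over all filtered genes.

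LPS/zVAD against LPS asks what the caspase inhibitor adds. The 2 genes at least 2-fold lower with zVAD were Hsph1 and Chordc1, where 3.59% of filtered genes were that much lower. At 1.5-fold or more 5 of 8 were lower, namely Hsph1, Chordc1, Hspa1a, Dnaja1 and Dnajb1 (background 13.2%). All 8 measured genes had log2 ratios below 0, against 55.1% of filtered genes, from -1.14 for Hsph1 to -0.18 for Hsp90aa1. The median of the 8 was -0.72, against -0.05 over filtered genes.

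LPS/zVAD/Nec-1 against LPS/zVAD asks which differences depend on RIPK1 kinase activity. Hsph1 was the 1 gene at least 2-fold higher with Nec-1 (background 1.14%), and at 1.5-fold or more 4 of 8 were higher, with Hspa1a, Dnajb1 and Chordc1 (background 7.31%). All 8 had log2 ratios above 0, against 59.8% of filtered genes, from 1.03 for Hsph1 to 0.12 for Hspa8. Their median was 0.59, against 0.07. This comparison and the previous one share the LPS/zVAD array, so an error of that array enters both with opposite signs. LPS/zVAD/Nec-1 against LPS uses neither Control nor that array. There, 0 of 8 genes were 2-fold apart in either direction (0.615% of filtered genes were), and the log2 ratios lay between -0.46 for Chordc1 and 0.02 for Dnajb1.

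**Figure D1:**
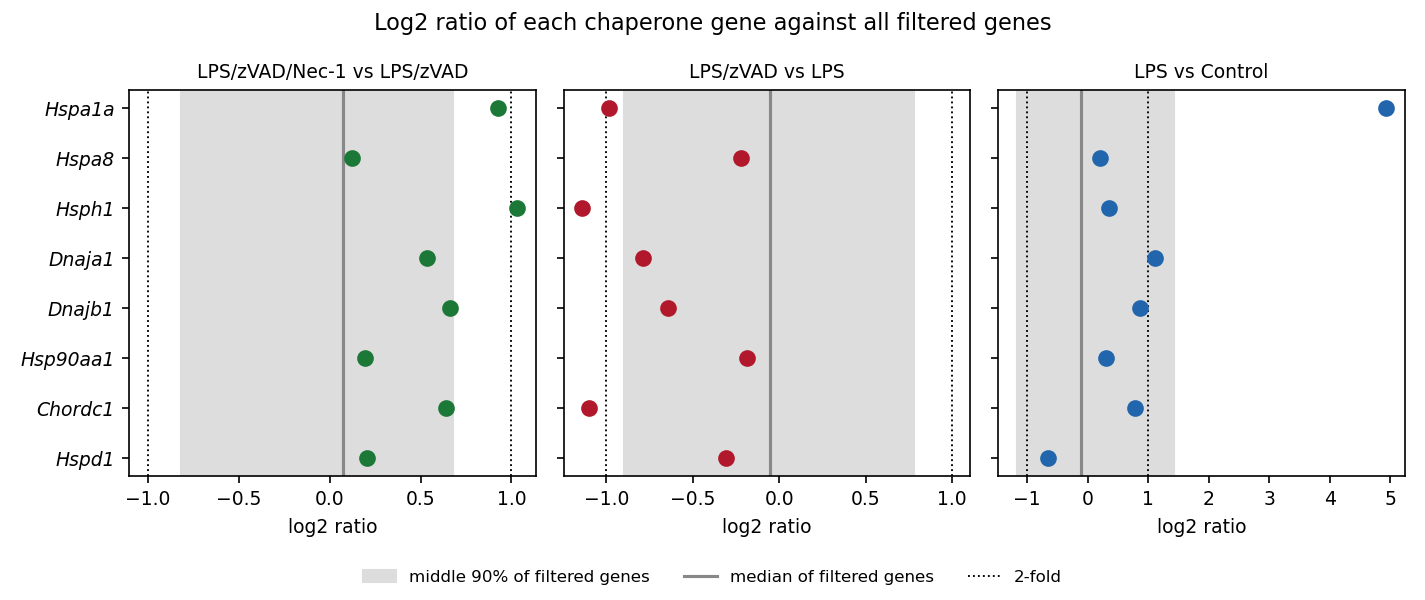
Log2 ratio (x axis) of each of the 8 measured genes (rows) in 3 comparisons, with the middle 90% of 12203 filtered genes shaded, their median as a grey line and 2-fold as dotted lines; each point is a difference of 2 single arrays. Hsph1, Chordc1 and Hspa1a lie left of the shaded range with LPS/zVAD against LPS, Hsph1 and Hspa1a lie right of it with Nec-1, and Hspa1a stands alone at 4.93 with LPS against Control.

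Hspa1a encodes the stress-inducible HSP70. Its log2 signal was 12.64 with LPS/zVAD/Nec-1, 11.71 with LPS/zVAD, 12.69 with LPS and 7.76 in Control. The 3 arrays with LPS stood far above Control, and the LPS/zVAD array was the lowest of them. Against Control, Hspa1a was 29.4-fold higher with LPS/zVAD/Nec-1, 15.5-fold higher with LPS/zVAD and 30.6-fold higher with LPS. Its LPS ratio was higher than in 99.6% of filtered genes. With zVAD added to LPS it was 1.98-fold lower (log2 ratio -0.98), just short of 2-fold, and with Nec-1 added to LPS/zVAD 1.90-fold higher (0.93). LPS/zVAD/Nec-1 and LPS differed by a log2 ratio of -0.05. Hspa1a and Hspa1b are near-identical copies, so the reading for Hspa1a is uncertain as to which copy it measured.

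Hspa8 encodes the constitutive HSP70, which also strips clathrin from vesicles. Its signals were 13.76 with LPS/zVAD/Nec-1, 13.64 with LPS/zVAD, 13.86 with LPS and 13.66 in Control. They span little, with log2 ratios of 0.20 for LPS against Control, -0.22 for zVAD and 0.12 for Nec-1.

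Hsph1 encodes HSP110, the nucleotide exchange factor of HSP70. It stood at 9.76 with LPS/zVAD/Nec-1, 8.73 with LPS/zVAD, 9.87 with LPS and 9.51 in Control. The LPS/zVAD array was the low one here, under Control as well as under both other LPS arrays. Hsph1 was 2.20-fold lower with LPS/zVAD than with LPS, a ratio lower than in all but 2.16% of filtered genes. With Nec-1 added it was 2.05-fold higher, a ratio higher than in 99.0% of them. LPS alone gave a ratio of 1.28-fold over Control, and LPS/zVAD was 1.73-fold below Control.

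**Figure D2:**
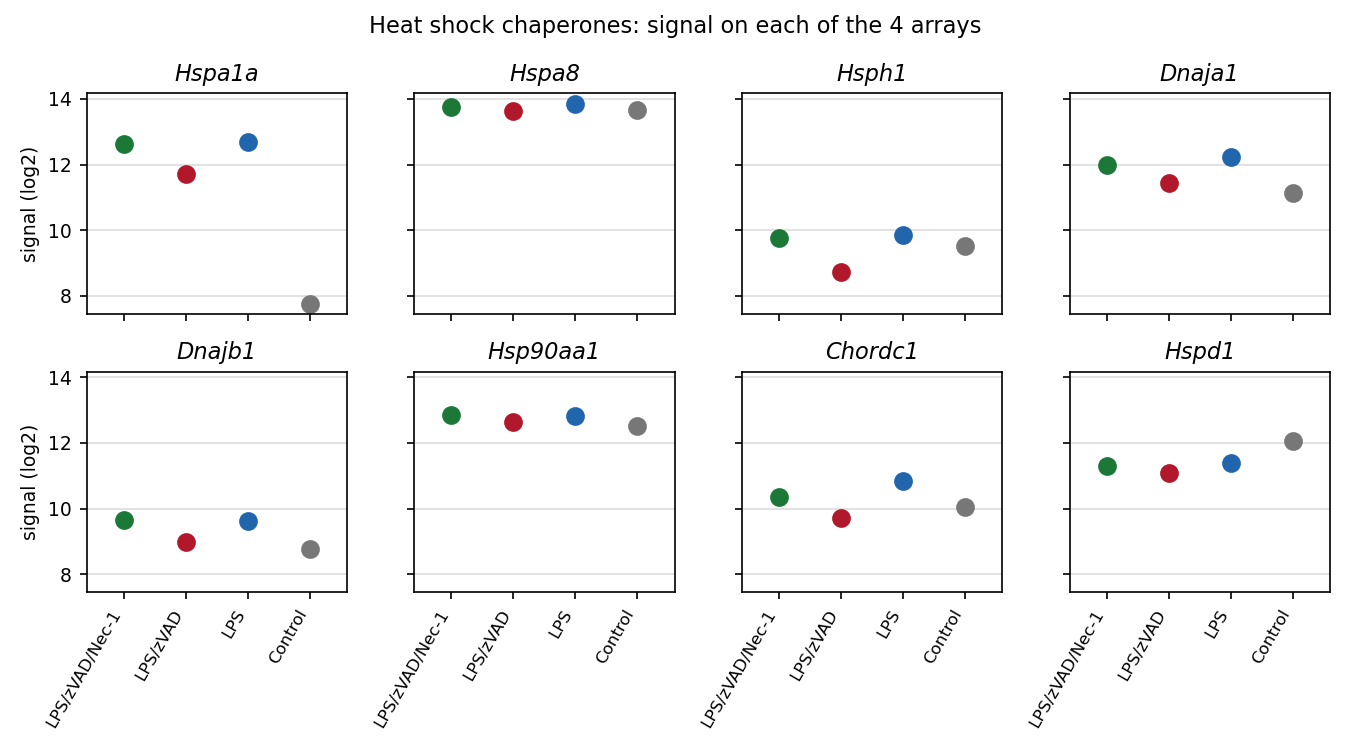
Log2 signal (y axis, shared by the panels) of each measured gene on the 4 arrays, from left to right LPS/zVAD/Nec-1, LPS/zVAD, LPS and Control; each point is 1 array and there are no error bars. The LPS/zVAD point is the lowest of the 3 arrays with LPS in every panel, a pattern that was not counted over all filtered genes. It is below Control for Hsph1 (8.73 and 9.51), Chordc1 (9.73 and 10.05), Hspd1 (11.09 and 12.06) and Hspa8 (13.64 and 13.66). Of the 12203 filtered genes, 7540 were below Control with LPS/zVAD.

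The listed J-domain genes Dnaja1 and Dnajb1 had a similar pattern on the probes used. Dnaja1, an HSP40 of the cytosol, had signals of 11.98 with LPS/zVAD/Nec-1, 11.44 with LPS/zVAD, 12.24 with LPS and 11.13 in Control. Dnajb1, the stress-inducible HSP40, had 9.66 with LPS/zVAD/Nec-1, 8.99 with LPS/zVAD, 9.64 with LPS and 8.77 in Control. For both genes Control was lowest, LPS/zVAD next and the other 2 arrays highest, but on the other probe of Dnaja1 LPS/zVAD (8.99) was lower than Control (9.08). LPS against Control was 2.16-fold higher for Dnaja1 and 1.82-fold higher for Dnajb1. With zVAD Dnaja1 was 1.73-fold and Dnajb1 1.56-fold lower, and with Nec-1 they were 1.45-fold and 1.58-fold higher. Dnaja1 with Nec-1 lay at a log2 ratio of -0.26 to LPS alone, and Dnajb1 at 0.02.

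Chordc1 encodes a zinc-binding protein with CHORD domains that attaches to HSP90. Its signals were 10.36 with LPS/zVAD/Nec-1, 9.73 with LPS/zVAD, 10.83 with LPS and 10.05 in Control. LPS was highest and LPS/zVAD lowest, with LPS/zVAD/Nec-1 and Control between them. Chordc1 was 1.71-fold higher with LPS than in Control, 2.15-fold lower with LPS/zVAD than with LPS, and 1.56-fold higher with Nec-1 than without it. Its signal with Nec-1 was 1.38-fold under that with LPS, the widest gap among the 8 genes in that comparison.

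Hsp90aa1, the gene of the inducible HSP90 alpha, stood at 12.84 with LPS/zVAD/Nec-1, 12.65 with LPS/zVAD, 12.83 with LPS and 12.53 in Control. These signals lie close together. The ratios were 1.24-fold higher for LPS over Control, 1.14-fold lower with zVAD and 1.14-fold higher with Nec-1, all inside the middle 90% of filtered genes.

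Hspd1 encodes HSP60, which folds proteins in the mitochondrial matrix. It had 11.29 with LPS/zVAD/Nec-1, 11.09 with LPS/zVAD, 11.40 with LPS and 12.06 in Control. Control was the high array for Hspd1, in contrast to the other 7 genes. Against Control, Hspd1 was 1.95-fold lower on the LPS/zVAD array and 1.58-fold lower on the LPS array. The zVAD and Nec-1 log2 ratios were -0.31 and 0.20. Of the measured genes with a printed run of heat shock units, Hspd1 (4 units) was lower with LPS than in Control and the others were higher. Chordc1 (5 units) was 1.71-fold higher and Hsph1 (3 units) 1.28-fold higher. Dnaja1 and Hspa1a (2 units each) were 2.16-fold and 30.6-fold higher. A link between run length and LPS ratio was not tested.

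Against Control directly, Hspa1a was the 1 of 8 genes at least 2-fold higher with LPS/zVAD (background 8.79%) and with LPS/zVAD/Nec-1 (background 6.85%). All 3 of these comparisons with Control share that array. With LPS/zVAD the signals of Dnaja1, Dnajb1, Hsp90aa1 and Hspa8 lay near Control, at log2 ratios of 0.32, 0.22, 0.12 and -0.02. With LPS/zVAD/Nec-1 those of Dnaja1 and Dnajb1 were 1.81-fold and 1.84-fold higher than Control.

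Dnaja1, Hsp90aa1, Hspa8 and Hspd1 had more than 1 probe of their own symbol, which gives a second reading of the same arrays. The other probe of Dnaja1 had log2 ratios of 1.06 for LPS, -1.15 for zVAD and 0.78 for Nec-1, against 1.11, -0.79 and 0.53 on the probe used above. The 3 probes of Hsp90aa1 lay between -0.18 and -0.16 for zVAD and between 0.10 and 0.19 for Nec-1. The third probe of Hspa8 had a Nec-1 ratio of the opposite sign, at -0.11. The other probe of Hspd1 gave -0.35 for LPS, -0.50 for zVAD and 0.31 for Nec-1. Every probe of these 4 symbols alone was lower with LPS/zVAD than with LPS. A probe annotated to both Mir207 and Dnaja1, left out by the rule of 1 symbol, had log2 ratios of the opposite sign for LPS against Control (-0.44) and for zVAD (0.10), and 0.24 for Nec-1.

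**Figure D3:**
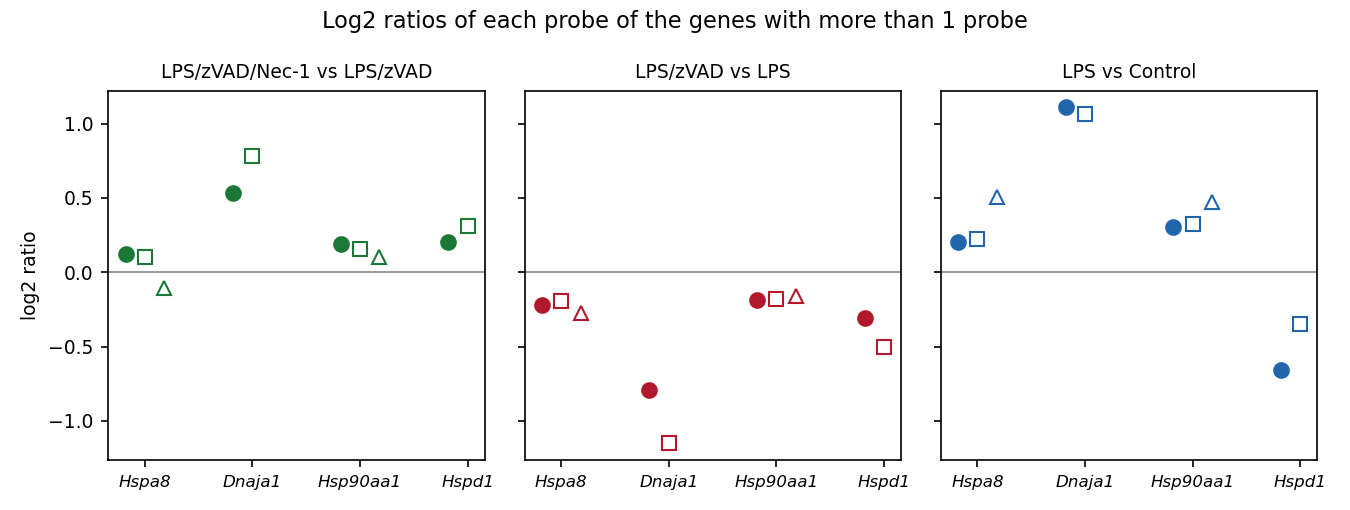
Log2 ratios (y axis) of each probe of the 4 genes with more than 1 probe of their own symbol, in 3 comparisons of single arrays; filled points are the probes used for the gene, open ones the others. All probes lie below 0 for LPS/zVAD against LPS, and 1 probe of Hspa8 lies below 0, at -0.11, for Nec-1.

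The wider chaperone network was described with 8 lists of other chaperone and cofactor genes, 95 in all, of which 86 passed the signal filter. With zVAD 6 of the 86 (6.98%) were at least 1.5-fold lower and 3 (3.49%) higher, against 13.2% lower and 7.96% higher over filtered genes. Their median log2 ratio was -0.11. With Nec-1 3 were at least 1.5-fold higher and 2 lower (3.49% and 2.33%, against 7.31% and 8.19% of filtered genes), with a median of 0.08. With LPS 10 were higher and 12 lower than in Control (11.6% and 14.0%, against 14.4% and 17.3%), with a median of -0.11.

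Among other HSP70 and HSP110 genes, Hspa1l, a relative of Hspa1a that lies in the same gene cluster, had 7.95 with LPS/zVAD/Nec-1, 7.51 with LPS/zVAD, 8.71 with LPS and 5.94 in Control. Control lay under the filter level, so Hspa1l was at least 4.72-fold higher with LPS, counted from that level. It was the 1 gene of the 86 (1.16%, against 3.59% of filtered genes) at least 2-fold lower with zVAD, at a log2 ratio of -1.20. With Nec-1 its ratio was 0.44. Hspa4l, an HSP110 gene, had 9.06 with LPS/zVAD/Nec-1, 9.90 with LPS/zVAD, 9.04 with LPS and 8.24 in Control. Here LPS/zVAD was the highest array, with log2 ratios of 0.86 for zVAD and -0.85 for Nec-1. Hspa9, the mitochondrial HSP70, had 11.15 with LPS/zVAD/Nec-1, 11.73 with LPS/zVAD, 11.05 with LPS and 11.86 in Control, a zVAD ratio of 0.68 and a Nec-1 ratio of -0.57. Hspa14 had ratios of -0.56 and 0.48. The list median was 0.03 for zVAD and 0.02 for Nec-1.

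Of the 20 other J-domain genes 0 were 2-fold apart with zVAD (3.59% of filtered genes were lower and 3.25% higher) or with Nec-1 (3.32% lower and 1.14% higher). At 1.5-fold 4 of 20 (20%) were lower with zVAD, against 13.2% of filtered genes, and 0 were higher, against 7.96%. These 4, named after their values were seen, were Dnajc7 (-0.88), Dnajb14 (-0.75), Dnajb11 (-0.67) and Dnajc10 (-0.61), and their Nec-1 ratios were 0.79, 0.23, 0.44 and 0.43. With Nec-1, 1 of the 20 (Dnajc7) was at least 1.5-fold higher and 1 lower (5% each, against 7.31% and 8.19% of filtered genes). The lower gene was Dnajb9, at -0.92, with a zVAD ratio of 0.45. In the list, zVAD ratios were above 0 for 7 of 20, and for 5472 of the 12203 filtered genes. Nec-1 ratios were below 0 for 9 of 20, and for 4907 of the 12203. Both comparisons use the LPS/zVAD array. Dnajb4, a cytosolic relative of Dnajb1, was higher with LPS than in Control at a log2 ratio of 1.47, and its zVAD and Nec-1 ratios were 0.18 and -0.41. Dnaja2 had 0.71 for LPS and 0.29 for zVAD. Dnajc9, a histone cochaperone, and Dnaja3, a mitochondrial J-domain gene, were lower with LPS (-1.22 and -0.85), with zVAD ratios of -0.02 and -0.22.

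Of 17 measured genes of other HSP90 family members and HSP90 cofactors, 0 were 2-fold apart with zVAD, against 3.59% of filtered genes lower and 3.25% higher. Their log2 ratios for zVAD were below 0 in 15 of 17, against 55.1% of filtered genes, with a median of -0.19 against -0.05. At 1.5-fold 1 was lower with zVAD (Ahsa2) and 1 higher (Ahsa1, at 0.62). These are 5.88% each, against 13.2% lower and 7.96% higher over filtered genes. With LPS 5 of the 17 (29.4%) were at least 1.5-fold lower than in Control, against 17.3% of filtered genes, and 0 were higher, against 14.4%. Ahsa2, an activator of the HSP90 ATPase, stood at 8.75 with LPS/zVAD/Nec-1, 8.13 with LPS/zVAD, 8.99 with LPS and 8.46 in Control, with log2 ratios of -0.86 for zVAD and 0.62 for Nec-1. Fkbp5, an immunophilin and glucocorticoid target, was lower with LPS than in Control (-1.08), as were the phosphatase gene Ppp5c (-0.98) and the ubiquitin ligase gene Stub1 (-0.80). Their zVAD ratios were -0.04, 0.35 and -0.24. Hsp90ab1 had no probe of 1 symbol and is not analysed here.

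The BAG and nucleotide exchange list, the mitochondrial folding list, the TRiC and prefoldin list and the small heat shock protein list each had 0 members at least 1.5-fold apart with zVAD or with Nec-1. Of filtered genes 13.2% were that much lower and 7.96% higher with zVAD, and 8.19% lower and 7.31% higher with Nec-1. Bag3, an HSF1 target that links HSP70 to autophagy, had a log2 ratio of 0.65 for LPS, -0.04 for zVAD and -0.23 for Nec-1. Bag4 and Bag5 had LPS ratios of -0.98 and -0.45, and Bag2 was past the filter level in Control (6.74) but under it on the 3 arrays with LPS. Hspe1, the HSP10 partner of Hspd1, had -0.18 for LPS, -0.36 for zVAD and 0.12 for Nec-1. Clpp, a mitochondrial protease gene, was lower with LPS at -1.12, Grpel2 at -0.59, and Clpb was at -0.09. The chaperonin genes Cct3 and Cct6a had zVAD ratios of -0.58 and -0.47, and the prefoldin genes Vbp1 and Pfdn2 -0.08 and 0.09.

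Hspb1, the gene of HSP27, stood at 8.25 with LPS/zVAD/Nec-1, 7.88 with LPS/zVAD, 7.57 with LPS and 6.76 in Control, so the array with both inhibitors was highest and its log2 ratio to LPS was 0.68. Hspb6 had a zVAD ratio of -0.10. Hspb2 lay under the filter level with LPS/zVAD, and Cryaa with both LPS/zVAD and LPS, so no zVAD ratio is given for them. Of the heat shock factor list 3 genes passed the filter. Hsf2 had 9.27 with LPS/zVAD/Nec-1, 9.53 with LPS/zVAD, 9.48 with LPS and 8.96 in Control, Hsbp1, an HSF1-binding protein gene, had zVAD and Nec-1 ratios of -0.21 and 0.24, and Hsf4 of 0.30 and -0.04.

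**Figure D4:**
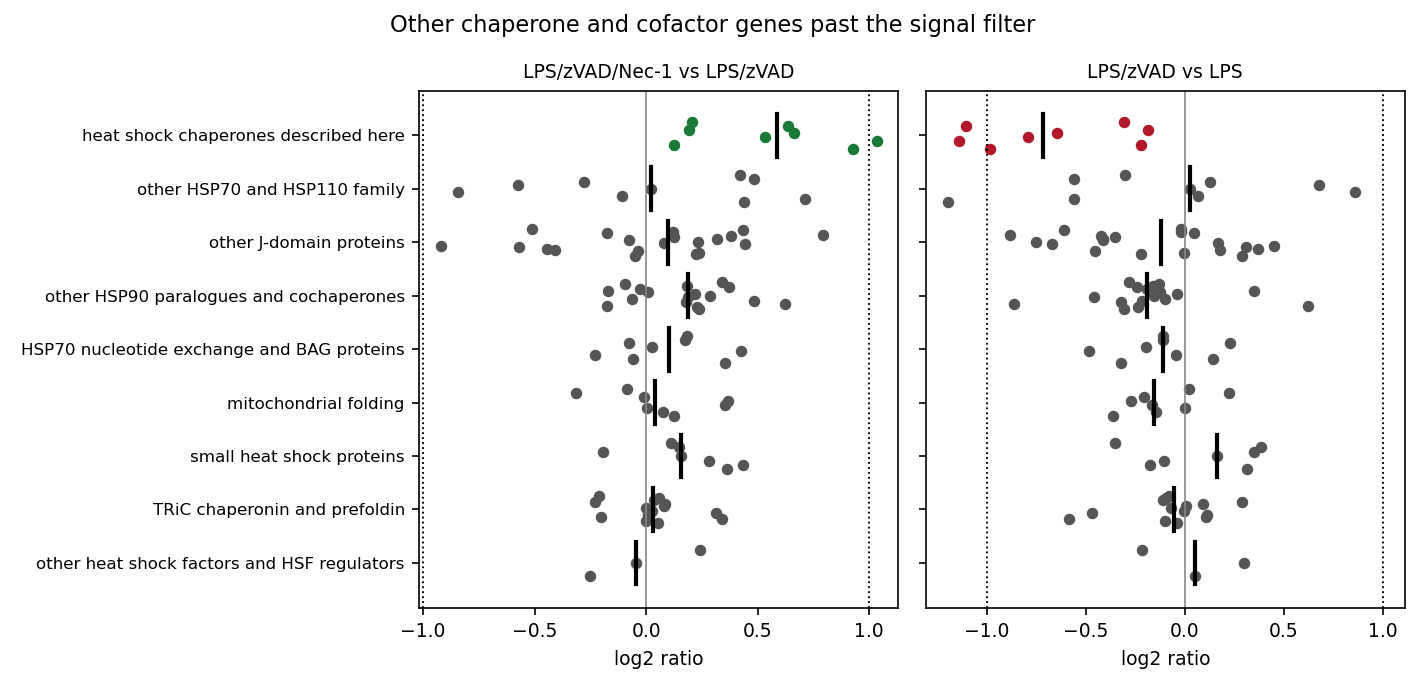
Log2 ratios (x axis) of single genes past the signal filter, in rows by list, with Nec-1 against LPS/zVAD on the left and LPS/zVAD against LPS on the right; each point is 1 gene, the black bar is the median of its list and dotted lines mark 2-fold. The 8 measured heat shock chaperones (top row) have medians of 0.59 and -0.72, and the other lists have medians from -0.04 to 0.19 on the left and from -0.19 to 0.16 on the right.

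Likeness of pattern was measured as the root mean square difference of log2 signals over the 4 arrays, after each gene was centred on its own mean. For Hspa1a the nearest named genes were Phf11a (0.12), Vcan, which encodes the matrix proteoglycan versican (0.14, with its Control signal under the filter level), and Gbp9, an interferon-inducible GTPase (0.19). For Hsph1 they were Ptpn6, the phosphatase SHP-1 (0.049), Cdk2ap2 (0.049) and Jade2 (0.052). For Dnaja1 they were Phf21a (0.0085), Coa5 (0.020) and Lrrk2 (0.031). The measure is a description over 4 arrays.

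The cells carried macrophage markers. All 8 listed macrophage markers (Adgre1, Cd68, Itgam, Csf1r, Lyz2, Fcgr1, Cd14 and Mertk) were past the filter, with a mean log2 signal of 12.77 with LPS/zVAD/Nec-1, 12.66 with LPS/zVAD, 12.88 with LPS and 12.44 in Control. Of 21 measured markers of other cells 10 were past the filter, among them all 5 neutrophil and all 3 stromal genes, and the mean of the 21 was 6.44 with LPS/zVAD/Nec-1, 6.36 with LPS/zVAD, 6.43 with LPS and 6.31 in Control. The 5 neutrophil markers averaged 8.86 with LPS/zVAD/Nec-1, 8.79 with LPS/zVAD, 9.19 with LPS and 8.62 in Control. The measured B cell, mast cell and erythroid markers were all under the filter. LPS/zVAD was the lowest of the 3 arrays with LPS for 5 of the 8 macrophage markers. The same held for 4 of the 21 measured markers of other cells, and among them for 2 of the 5 neutrophil markers. This was not counted over all filtered genes, so no background share stands beside these counts. The markers' part in the chaperone differences was not tested. In a bulk sample, fewer cells of a type and less RNA per cell cannot be told apart. Median log2 signals of the arrays lay between 6.41 and 6.52.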

How the data were processed

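Gene-level signals of 4 Affymetrix arrays were used as deposited by the authors, on a log2 scale read from the values, and per the labels came out of the Affymetrix Expression Console software. Its version, background correction, summarisation and normalization were not given in the sources used here, so an array-wide shift or a level-dependent trend could move every ratio. Of 35556 probes, 21789 had 1 symbol in the platform annotation, 1621 had several and 12146 none. Genes with several probes were represented by the probe with the highest mean of the 4 arrays. The signal filter kept genes with a highest log2 signal of at least 6.47, the median of all values, and left out 7735. Each ratio subtracts one array's log2 signal from another's. The call was a ratio of at least 2-fold, a rule of size with no test, and the number of arrays limits the precision. Alternatives were 3 other scalings (median centring, and quantile and cyclic loess with limma 3.58.1 in R 4.3.3), other thresholds, probes and filters. Counting was tested on simulated data, in Python 3.11.15.

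The members, lists and rules were chosen with earlier results of these data known. Named genes were all members, up to 4 filtered genes of each other list with the largest absolute ratio in any of 6 comparisons, 4 close partners, and the 3 genes nearest in pattern to each of the 3 members with the widest range. The J-domain genes Dnajc7, Dnajb14, Dnajb11, Dnajc10 and Dnajb9, and Ahsa1 of the HSP90 list, were named outside this rule, for their zVAD or Nec-1 ratios. Promoter windows came from RefSeq (GRCm38.p6) and no other coordinates are given, since no genome build is given for the arrays.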

Additional observations from a re-analysis of the deposited data

Results flagged for a closer look

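One probe outside the comparisons carried a signal well above Control. It is annotated to both Hspa1a and Hspa1b, so it was left out by the rule of 1 symbol and its signal belongs to neither gene alone. Its log2 signal was 13.32 with LPS/zVAD/Nec-1, 12.23 with LPS/zVAD, 13.16 with LPS and 8.70 in Control. The log2 ratios were 4.46 for LPS against Control, -0.93 for LPS/zVAD against LPS and 1.09 for LPS/zVAD/Nec-1 against LPS/zVAD, beside 4.93, -0.98 and 0.93 on the probe of Hspa1a alone. No group had 4 or more arrays, so single arrays could not be examined for a value far from the rest of their group.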

How the results depend on the processing

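With 1 array per group no test, replicate spread or leave-one-out value was possible, and a difference between 2 arrays cannot be told apart from array error. No paired analysis was possible because each group has 1 array. Counts of members past 2-fold were 2 for LPS against Control, 2 for zVAD, 1 for Nec-1, 0 for LPS/zVAD/Nec-1 against LPS, and 1 each for LPS/zVAD and LPS/zVAD/Nec-1 against Control. After quantile normalization they were 1 for LPS (without Dnaja1, at 0.99), 0 for Nec-1 (Hsph1 at 0.99) and 2 for LPS/zVAD against Control (with Hspd1 at -1.07). After cyclic loess they were 1 for zVAD (without Chordc1, at -0.98), 0 for Nec-1 (Hsph1 at 0.95) and 2 for LPS/zVAD/Nec-1 against Control. At 1.5-fold the counts were 5 for LPS (4 higher, 1 lower), 5 for zVAD (all lower) and 4 for Nec-1 (all higher). They were 3 for LPS/zVAD against Control (1 higher, 2 lower) and 4 for LPS/zVAD/Nec-1 against Control (3 higher, 1 lower). Of filtered genes, 14.4% were that much higher and 24.7% lower with LPS/zVAD than in Control. With LPS/zVAD/Nec-1 these shares were 11.9% and 18.3%, and those for LPS, zVAD and Nec-1 are given above. At 3-fold the counts were 1 for LPS (4.47% of filtered genes higher, 2.20% lower), 0 for zVAD (1.18% and 0.631%) and 0 for Nec-1 (0.131% and 0.893%). With probes of several symbols included, an alternative chosen after seeing the data, the counts were 3 for Nec-1, 2 for LPS/zVAD against Control and 2 for LPS/zVAD/Nec-1 against Control. Under this setting Hspa1a and Hspa1b were both read from the probe they share, so 1 probe was counted as 2 genes. Other settings kept each count within 1.5 times. Of 288 single-gene values under the scaling and probe alternatives, 9 crossed 2-fold and 0 values past 2-fold turned sign. For LPS against Control and for zVAD 0 of 48 values each turned sign, and for Nec-1 1 of 48 did (Hspa8 on its lowest probe). For LPS/zVAD/Nec-1 against LPS 7 of 48 turned sign, for LPS/zVAD against Control 4, and for LPS/zVAD/Nec-1 against Control 0. Under the 3 scalings the log2 ratio of Hspa1a for LPS lay between 4.96 and 5.04, and that of Chordc1 for zVAD between -1.15 and -0.98. The median of all filtered genes for LPS against Control was -0.12 as deposited and -0.01 with centred arrays. The share of filtered genes at least 2-fold lower with zVAD was 3.59% as deposited, 4.19% with centred arrays, 2.60% after quantile normalization and 2.57% after cyclic loess, and the share 2-fold higher was 3.25%, 3.05%, 3.56% and 3.80% in the same order.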
